A study of Mus musculus with 4 samples.

Results

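The annexins are calcium-dependent phospholipid-binding proteins, and their transcripts were compared here between L929 and NIH3T3 cells. Members were the probe sets whose platform gene symbol is Anxa1, Anxa2, Anxa3, Anxa4, Anxa5, Anxa6, Anxa7, Anxa8, Anxa10 or Anxa11. Of these 10 genes 9 had at least 1 probe set of their own, among 18193 genes named by the platform, and these 9 gave 21 of the 45037 probe sets that are not controls. The only probe set annotated to Anxa11 is shared by 3 genes, so no value is given for it. L929 is a fibroblast line from mouse connective tissue that the submitters class as sensitive to necrosis, and NIH3T3 is a fibroblast line from mouse embryos that they class as sensitive to apoptosis. Both lines were unstimulated, the labels name no allele or agent, and each was measured on 2 Affymetrix Mouse Genome 430 2.0 arrays. Each way of dying is represented by 1 line, so line and mode of death cannot be told apart.

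Annexins bind acidic phospholipids such as phosphatidylserine at the inner face of membranes when calcium rises, through a conserved core of repeated domains, and differ mainly in their amino-terminal tails. Through the tail several of them bind small EF-hand proteins, as Anxa2 does with S100a10. They are known for membrane trafficking, for patching holes in the plasma membrane, and, in the case of Anxa5, for labelling phosphatidylserine on dying cells.

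Values are MAS5 signals in arbitrary units, scaled here so that all 4 arrays share a trimmed mean. A level of 17.3, below which 40% of scaled signals fell, served as the filter: a probe set was tested if both arrays of a line exceeded it. Deposited trimmed means were 134.5 to 142.2 on 3 arrays and 210.3 on NIH3T3 replicate 2. Of 11 fibroblast markers 9 exceeded the level on both L929 arrays and 11 on both NIH3T3 arrays, and so did 3 of 6 epithelial and 3 of 6 leukocyte markers in each line, 1 of 5 endothelial markers in L929 and 0 in NIH3T3, and 0 of 2 adipocyte markers in either. Of the defining markers, Pecam1 (endothelial) and Ptprc (leukocyte) lay below the level on all 4 arrays, while the leukocyte markers Cd68, Adgre1 and Csf1r and the epithelial markers Epcam, Krt8 and Krt5 exceeded it on all 4. Summed signals were 35338 to 45962 for the fibroblast list, 152 to 177 for 6 epithelial markers, 48.4 to 79.0 for 5 endothelial markers, 152 to 219 for 6 leukocyte markers and 7.48 to 18.1 for 2 adipocyte markers. Whether the replicates of a line came from separate cultures is not stated, so a p-value covers only the spread between arrays, which may be technical, and the number of arrays limits the precision.

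RefSeq promoter windows of 300 bases, 250 before to 50 after a start site, were matched by symbol to 8 members, giving 10 windows, with 2 each for Anxa4 and Anxa7. Anxa3 and Anxa6 were not matched. The windows of Anxa1, Anxa2 and Anxa5 are shown because these genes gave strong signals in both lines, and that of Anxa10 because it lay below the level on all 4 arrays. On GRCm38.p6 they are chr19:20390622-20390921 (minus strand, Anxa1), chr9:69453433-69453732 (plus strand, Anxa2), chr3:36475838-36476137 (minus strand, Anxa5) and chr8:62123144-62123443 (minus strand, Anxa10). Capitals mark the letters TATAAA and TGANTCA, searched on both strands.
Anxa1: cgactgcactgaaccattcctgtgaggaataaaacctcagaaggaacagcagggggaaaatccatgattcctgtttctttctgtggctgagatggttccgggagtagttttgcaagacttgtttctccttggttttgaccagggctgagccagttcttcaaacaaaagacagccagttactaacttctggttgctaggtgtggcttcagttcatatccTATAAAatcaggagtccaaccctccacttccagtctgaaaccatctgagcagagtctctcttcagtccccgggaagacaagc
Anxa2: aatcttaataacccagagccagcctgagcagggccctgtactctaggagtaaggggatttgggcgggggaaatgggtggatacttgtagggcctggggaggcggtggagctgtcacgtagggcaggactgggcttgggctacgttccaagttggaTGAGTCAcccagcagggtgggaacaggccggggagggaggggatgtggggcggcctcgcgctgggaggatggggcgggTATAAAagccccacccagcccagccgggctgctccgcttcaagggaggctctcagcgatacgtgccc
Anxa5: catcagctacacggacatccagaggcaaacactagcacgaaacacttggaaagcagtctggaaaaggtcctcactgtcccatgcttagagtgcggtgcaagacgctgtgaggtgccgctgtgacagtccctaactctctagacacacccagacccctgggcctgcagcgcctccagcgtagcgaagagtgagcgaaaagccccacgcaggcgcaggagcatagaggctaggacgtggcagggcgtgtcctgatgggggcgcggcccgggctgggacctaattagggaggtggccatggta
Anxa10: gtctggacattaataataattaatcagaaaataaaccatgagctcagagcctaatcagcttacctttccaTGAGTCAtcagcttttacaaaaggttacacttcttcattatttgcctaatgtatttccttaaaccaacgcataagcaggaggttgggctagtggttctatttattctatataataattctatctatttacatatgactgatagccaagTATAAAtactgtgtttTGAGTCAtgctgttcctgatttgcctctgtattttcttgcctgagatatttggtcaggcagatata

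The letters TATAAA, the core of the TATA box, were found in 3 of the 10 windows, those of Anxa1, Anxa2 and Anxa10, against 13.6% of 32851 windows in the table. The match began 32 bases before the start site in Anxa1 and Anxa10 and 17 bases before it in Anxa2. TGANTCA, in which N is any base, was found in 2 of the 10, once in Anxa2 and at 2 places in Anxa10, against 7.81% of all windows. Each of these matches read TGAGTCA, letters bound by AP-1 factors. The share over all windows also counts the other bases at N, so it is not a share of AP-1 letters. CG pairs numbered 3 in the Anxa1 window, 13 in Anxa2, 16 in Anxa5 and 1 in Anxa10, against a median of 7. Thus TATAAA stood both in windows of genes with strong signals and in that of a gene below the level. The window of Anxa8, which also lay below the level on all 4 arrays, held neither TATAAA nor TGANTCA. A match of letters is not a binding site, and the arrays did not measure promoters.

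Most annexins of these fibroblasts did not meet both thresholds, in adjusted p and in fold, for a difference between the lines. Anxa1, Anxa2, Anxa3, Anxa4, Anxa5 and Anxa7 were well above the filter level in both lines without passing the call, Anxa6 was lower in L929, and Anxa8 and Anxa10 lay below the level on all 4 arrays. A total of 14 probe sets of 7 genes could be tested with limma. Called means a Benjamini-Hochberg adjusted p under 0.05 over all 27438 tested probe sets and a fold above 1.5, the thresholds in the submitters' design text. By this rule 0 annexin probe sets were higher in L929 and 1 was lower, whereas 31.6% of all tested probe sets were called, 14.9% higher and 16.7% lower. At an unadjusted p under 0.05, 1 of the 14 annexin probe sets was higher and 5 were lower, against 22.7% and 24.8% of all tested probe sets. Of all called probe sets 47.2% were higher, a share of 28.5% without scaling. The adjusted p fell under 0.05 at any fold for 5 of the 14, against 39.3% of all. Besides the called probe set these were probe sets of Anxa4, Anxa5 and Anxa7, each under 1.5-fold. The scaled signals of the lines did not overlap for 8 of the 14, against 69.9% of all.

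The median log2 difference of the 14 probe sets, L929 minus NIH3T3, was -0.018, against -0.0091 for all tested probe sets, and the median size of the difference was 0.35 against 0.44. Signs were split evenly, with 7 above 0 and 7 below. The largest annexin difference was 1.75-fold, a size exceeded by 27.1% of all tested probe sets. A difference under the threshold does not show equal levels. The 95% interval of the difference lay within 1.5-fold in both directions for 3 of the 14 probe sets, against 17.3% of all; these were the Anxa3 probe set and 2 of the 3 for Anxa4.

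**Figure D1:**
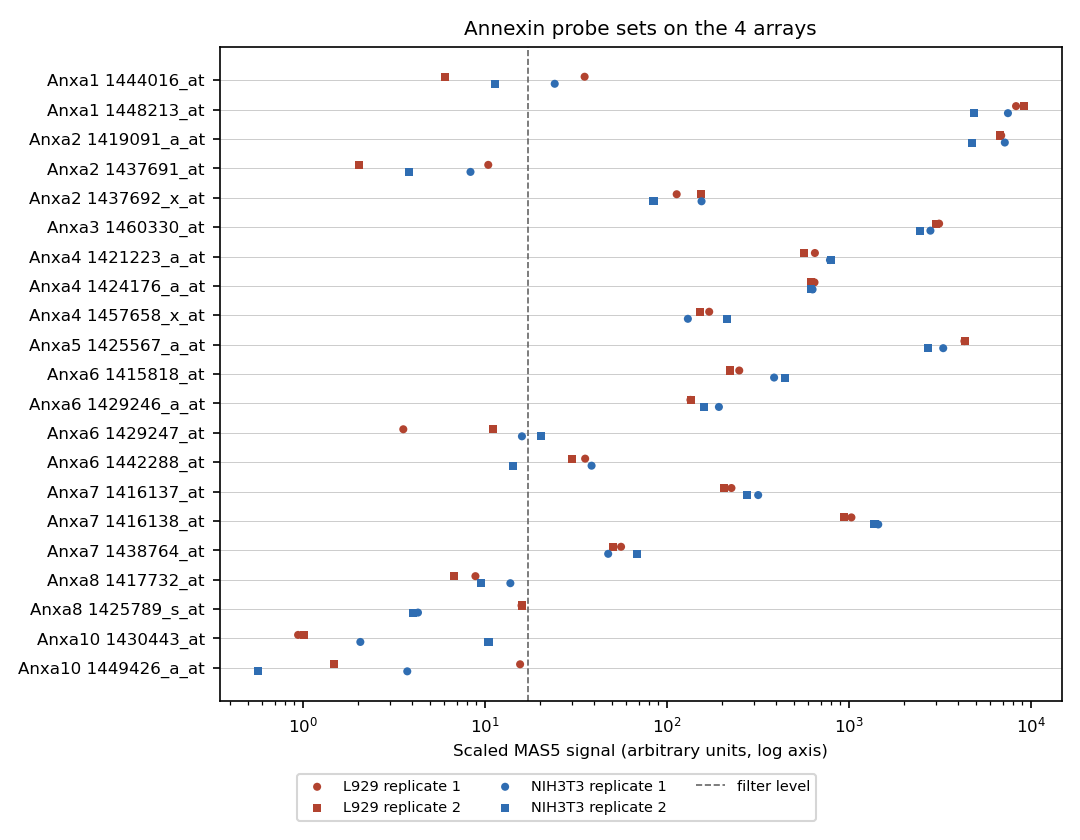
Scaled MAS5 signal (log axis, arbitrary units) of all 21 annexin probe sets, with 1 point per array, L929 in red and NIH3T3 in blue; the dashed line is the filter level of 17.3. The cell lines do not overlap for 8 of the 14 tested probe sets, among them Anxa6 1415818_at, against 69.9% of all tested probe sets. Both probe sets of Anxa8 and of Anxa10 lie left of the dashed line on all 4 arrays.

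**Figure D2:**
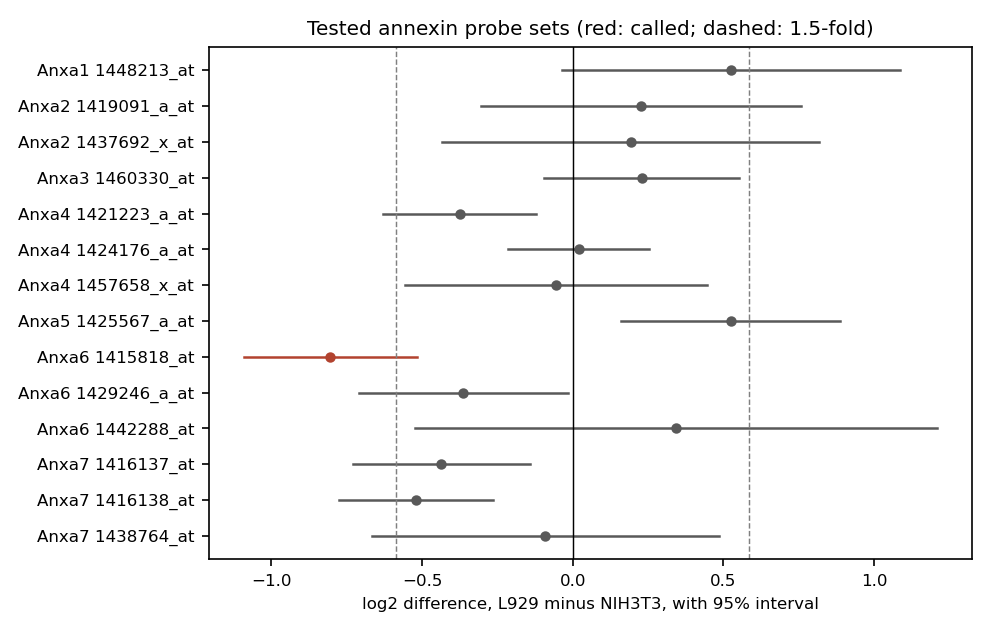
The log2 difference (L929 minus NIH3T3, x axis) of the 14 tested annexin probe sets with its 95% interval from limma; dashed lines mark 1.5-fold and red marks the called probe set. The red interval is that of Anxa6 1415818_at, at -0.80, and the other 13 are grey.

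Anxa6, which carries a duplicated annexin core and binds membranes of the endocytic and cholesterol-handling pathways, was the only member called. Its probe set 1415818_at measured 250.2 and 222 in L929 and 389 and 448 in NIH3T3. Both L929 values lay below both NIH3T3 values. The means were 236 ± 20.3 and 418 ± 41.7 (SD, n = 2 arrays each), and L929 was 1.75-fold lower (log2 difference -0.80, SE 0.13, 95% interval -1.09 to -0.52, limma adjusted p = 0.00126). Without scaling the adjusted p was 0.0742 at a difference of -1.08, where the median of all tested probe sets also moved to -0.28; relative to that median Anxa6 stood at -0.80.

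The other 3 Anxa6 probe sets were not called. Probe set 1429246_a_at measured 135 on each L929 array and 193 and 160 in NIH3T3, which again did not overlap (log2 difference -0.36, limma adjusted p = 0.0924). Probe set 1442288_at measured 35.6 and 30.2 in L929 and 38.6 and 14.2 in NIH3T3, where 1 of 2 arrays exceeded the level, a difference of 0.34 on the log2 scale with a 95% interval of -0.52 to 1.21. Its sign turned to -0.19 without NIH3T3 replicate 2. Probe set 1429247_at, at 3.57 and 11.1 against 16.0 and 20.3, was too dim to be tested. The Anxa6 call thus rested on 1 of its 4 probe sets.

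Anxa7, also called synexin, promotes calcium-dependent membrane fusion and binds the EF-hand protein sorcin. Probe set 1416138_at measured 1034 and 942 in L929 and 1452 and 1385 in NIH3T3. All L929 values were below all NIH3T3 values, and the 1.43-fold difference had a small adjusted p but lay under the fold threshold (log2 difference -0.52, 95% interval -0.78 to -0.26, limma adjusted p = 0.00657). Without L929 replicate 1 it was -0.59, just past the fold threshold, and without L929 replicate 2 it was -0.45. The adjusted p rose above 0.05 without scaling (limma adjusted p = 0.0869), without the variance trend (0.0527) and without L929 replicate 2. Probe set 1416137_at measured 227 and 207 against 318 and 275, a 1.35-fold difference of the same sign (log2 difference -0.44, limma adjusted p = 0.0268). For it too the adjusted p exceeded 0.05 in some settings, among them median scaling (limma adjusted p = 0.0702) and quantile normalization (0.0563). The third, 1438764_at, was dimmer, with 56.1 and 50.8 in L929 overlapping 47.7 and 68.7 in NIH3T3. Its log2 difference was -0.09, with a 95% interval of -0.67 to 0.49. Its sign turned with quantile normalization, to 0.0047, and without NIH3T3 replicate 2, to 0.14.

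Anxa4 binds membranes of secretory cells and affects vesicle aggregation. Its 3 probe sets did not share a direction. Probe set 1421223_a_at measured 652 and 569 in L929 and 788 and 795 in NIH3T3, without overlap and 1.30-fold apart, under the fold threshold (log2 difference -0.37, limma adjusted p = 0.0272). The adjusted p exceeded 0.05 in some settings, among them no scaling (limma adjusted p = 0.268), median scaling (0.102) and no variance trend (0.124). Probe set 1424176_a_at measured 648 and 620 against 633 and 618, with overlapping lines and a 95% interval of -0.21 to 0.25 on the log2 scale. Probe set 1457658_x_at, whose suffix marks possible cross-hybridisation, measured 171 and 151 against 131 and 214, so that both L929 values lay between those of NIH3T3. The signs of the last 2 turned under another scaling: 1424176_a_at stood at -0.26 without scaling, and 1457658_x_at at 0.0053 with median scaling.

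Anxa5, the phosphatidylserine binder used as a stain for dying cells, was measured by 1 probe set, 1425567_a_at. It read 4321 and 4332 in L929 and 3305 and 2734 in NIH3T3, without overlap. The 1.44-fold excess in L929 lay just under the fold threshold (log2 difference 0.52, SE 0.16, 95% interval 0.16 to 0.89, limma adjusted p = 0.0295). It passed with median scaling, at 0.59 (limma adjusted p = 0.0456), and without NIH3T3 replicate 1, at 0.66 (limma adjusted p = 9.9e-04). The difference was smaller without NIH3T3 replicate 2, at 0.39, and without scaling, at 0.24 (limma adjusted p = 0.543). The adjusted p also exceeded 0.05 with no filter (limma adjusted p = 0.0605) and with no variance trend (0.0677). Leaving out L929 replicate 1 (difference 0.53) or L929 replicate 2 (0.52) raised it above 0.05 as well.

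Anxa1, a glucocorticoid-regulated protein whose amino-terminal peptide acts on formyl peptide receptors, measured 8305 and 9149 in L929 and 7495 and 4891 in NIH3T3 with probe set 1448213_at. The lines did not overlap, but the NIH3T3 arrays lay further apart than the gap to L929, and the 1.44-fold difference was not called (log2 difference 0.53, 95% interval -0.04 to 1.09, limma adjusted p = 0.126). Without NIH3T3 replicate 1 it was called, at 0.83 (limma adjusted p = 6.7e-04), and without NIH3T3 replicate 2 it was 0.22 (limma adjusted p = 0.0878). The other Anxa1 probe set, 1444016_at, measured 35.4 and 6.04 against 24.2 and 11.4, with 1 array of each line above the level, and was not tested.

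Anxa2, which forms a complex with S100a10 at the plasma membrane, measured 6883 and 6812 in L929 and 7204 and 4753 in NIH3T3 with probe set 1419091_a_at. The L929 values lay between the NIH3T3 values (log2 difference 0.23, 95% interval -0.30 to 0.76, limma adjusted p = 0.479). Probe set 1437692_x_at measured 113 and 154 against 155 and 84.5, with a difference of 0.19, and 1437691_at, at 2.04 to 10.4, lay below the level on all 4 arrays. Without scaling both tested Anxa2 probe sets turned sign, to -0.060 and -0.074. Anxa3, which has been linked to phospholipase inhibition, measured 3137 and 3019 against 2810 and 2450, without overlap and 1.17-fold apart (log2 difference 0.23, 95% interval -0.09 to 0.55, limma adjusted p = 0.237). Its sign turned without scaling, to -0.057. The value without scaling was above the median of all tested probe sets for these 3 probe sets.

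After scaling, NIH3T3 replicate 2 read low for strong signals. Among the 1059 tested probe sets with a mean scaled signal above 2000, the median ratio of NIH3T3 replicate 2 to replicate 1 was 0.825, against 1.01 for the 7242 probe sets between 200 and 1000; as deposited these ratios were 1.28 and 1.57. The scaled ratio was 0.653 for Anxa1 1448213_at, 0.660 for Anxa2 1419091_a_at, 0.872 for Anxa3 and 0.827 for Anxa5 (1.01, 1.03, 1.35 and 1.29 as deposited), while the replicates of L929 stood between 0.962 and 1.10 for the same probe sets. The median log2 difference between lines was 0.13 in the range above 2000. With quantile normalization, which gives every array the same distribution, the differences were 0.38 for Anxa1 (limma adjusted p = 0.00758), 0.13 for Anxa2 (0.227), 0.15 for Anxa3 (0.163) and 0.44 for Anxa5 (0.00243), and 0 of the 4 was called. Without NIH3T3 replicate 2 the differences were 0.22 for Anxa1 (limma adjusted p = 0.0878), -0.073 for Anxa2 1419091_a_at (0.458), 0.13 for Anxa3 (0.252) and 0.39 for Anxa5 (0.00774), each smaller in size than with all 4 arrays and none past the fold threshold.

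Anxa8, first described as a vascular anticoagulant protein, was below the level throughout. Probe set 1417732_at measured 8.88 and 6.75 in L929 and 13.8 and 9.55 in NIH3T3, and 1425789_s_at 15.9 and 16.0 against 4.29 and 4.05. Anxa10, an annexin of the stomach lining, measured 0.942 and 1.01 against 2.07 and 10.5 with 1430443_at and 15.6 and 1.48 against 3.75 and 0.566 with 1449426_a_at. Neither gene was tested. The level is a percentile and not a measured detection limit, so low values do not show that a transcript was absent. Of the annexins that were not members, Anxa9 measured 24.9 and 39.1 against 30.6 and 30.2 (log2 difference 0.04, limma adjusted p = 0.936), and Anxa13, with 1 array of each line above the level, was not tested.

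**Figure D3:**
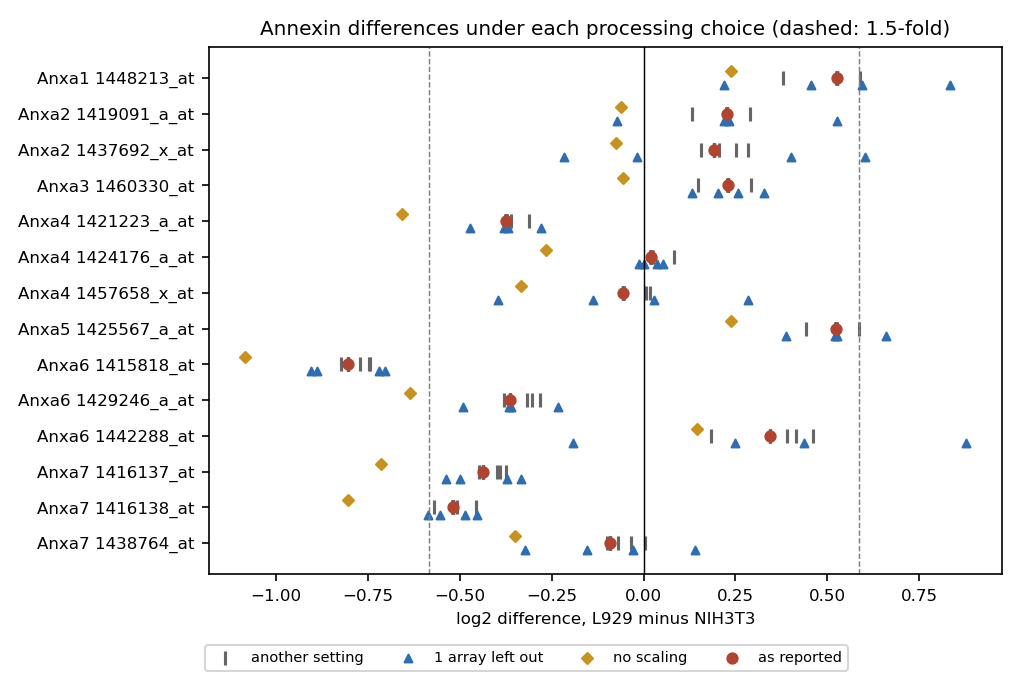
The log2 difference (L929 minus NIH3T3, x axis) of each tested annexin probe set as reported (red) and under the alternatives: no scaling (yellow), 1 array left out (blue) and all other settings (grey). Anxa6 1415818_at stayed left of the 1.5-fold line in every setting, from -1.08 to -0.70, and the yellow points lie to the left of the red ones, as the median of all tested probe sets moved from -0.0091 to -0.28 without scaling.

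Among the small EF-hand proteins that bind annexins, Sri and Pdcd6 were higher in L929. For these and the other related lists each gene was taken from its tested probe set with the highest mean, and 34.6% of all genes taken in this way were called, 17.1% higher and 17.5% lower. Of 5 tested EF-hand partners 2 were higher and 0 lower, with a median of 0.56, which is the value of S100a10. S100a10, S100a6 and S100a4 had mean scaled signals above 2000, the range in which NIH3T3 replicate 2 read low after scaling. Sri, or sorcin, the partner of Anxa7, measured 2535 and 2340 in L929 and 601 and 575 in NIH3T3. That is 4.10-fold higher in L929 (log2 difference 2.04, SE 0.11, limma adjusted p = 3.4e-06). Pdcd6, or ALG-2, which binds Anxa7 and Anxa11, measured 1623 and 1668 against 1044 and 1034, a 1.58-fold excess (log2 difference 0.66, limma adjusted p = 0.00162) that was not called without scaling (limma adjusted p = 0.5).

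S100a10, the light chain of the Anxa2 complex, gave higher values in L929 with each of its 3 probe sets. The brightest, 1456642_x_at, measured 6492 and 7290 in L929 and 5566 and 3909 in NIH3T3 and was not called (log2 difference 0.56, limma adjusted p = 0.0719), although it was without NIH3T3 replicate 1 (0.81); without NIH3T3 replicate 2 it was 0.31. Probe set 1416762_at measured 6647 and 6624 against 5145 and 3596 and was called (log2 difference 0.62, limma adjusted p = 0.0445), but not in 8 of 14 alternatives, among them quantile normalization (0.53) and leaving out L929 replicate 1 (0.62), L929 replicate 2 (0.63) or NIH3T3 replicate 2 (0.37). Probe set 1439348_at measured 390 and 436 against 78.9 and 79.5, 4.81-fold higher, in contrast to the 1.54-fold of 1416762_at (log2 difference 2.27, SE 0.13, limma adjusted p = 5.2e-06). The size of the S100a10 difference therefore depended on the probe set. S100a6, at 7672 and 7710 against 8987 and 5689, and S100a4, at 11341 and 11466 against 10377 and 6277, were not called, and S100a11 has no probe set of its own.

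**Figure D4:**
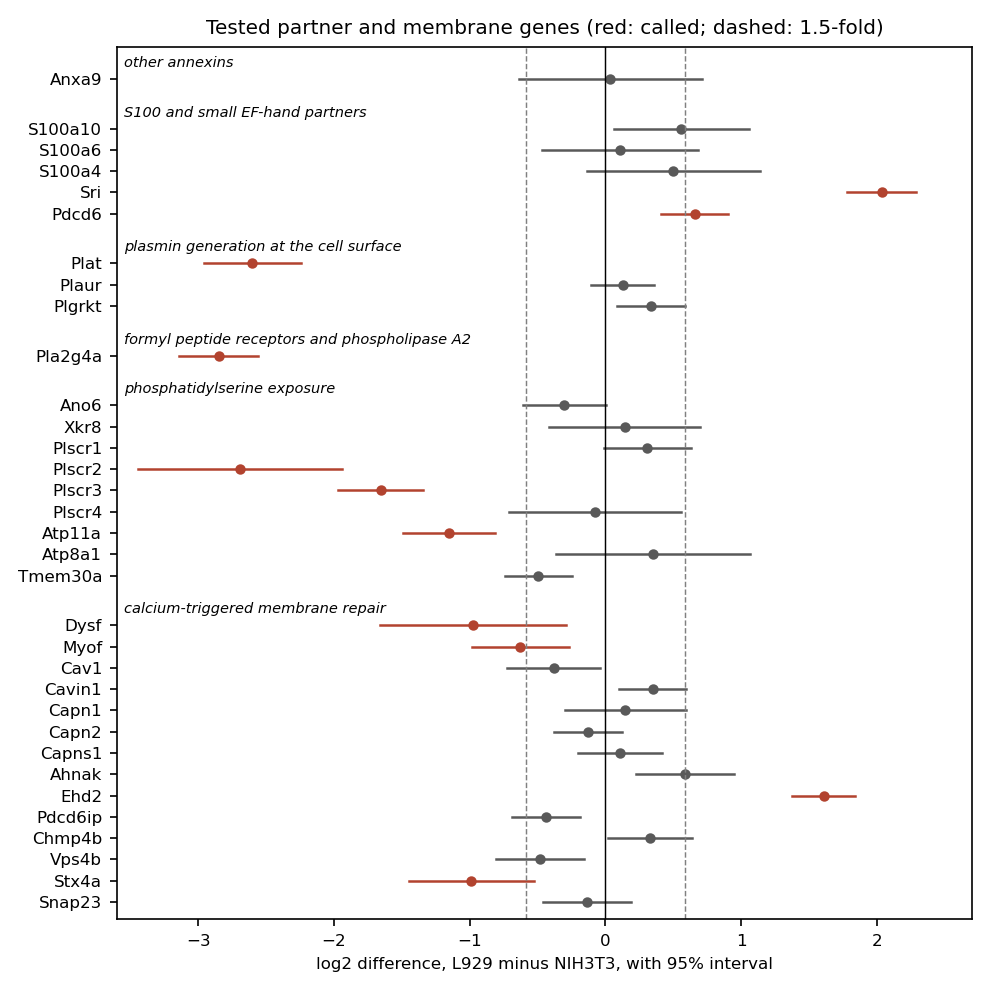
The log2 difference (L929 minus NIH3T3, x axis) with its 95% interval for each tested gene of the annexin-related lists, 1 probe set per gene; dashed lines mark 1.5-fold and red marks called genes. Sri and Ehd2 stand to the right, at 2.04 and 1.61, and Pla2g4a and Plat to the left, at -2.85 and -2.60. Plscr2, below the level in L929, is drawn at its fitted value, which ranged from -4.83 to -1.31 with the offset and has no settled rank.

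Of the genes for plasmin generation, which the Anxa2 complex localises at the cell surface, 1 of 3 tested was lower and 0 were higher. Plat, the tissue plasminogen activator, measured 49.6 and 48.6 in L929 and 315 and 364 in NIH3T3, 6.07-fold lower in L929 (log2 difference -2.60, SE 0.16, limma adjusted p = 5.9e-06). The receptors Plaur and Plgrkt were not called, at 0.13 and 0.34. Pla2g4a, the cytosolic phospholipase A2 whose activity annexins have been reported to inhibit, measured 304 and 245 against 1933 and 2104, 7.21-fold lower in L929 (log2 difference -2.85, SE 0.13, limma adjusted p = 1.2e-06). Fpr2, a receptor for Anxa1, was too dim to be tested, and Fpr1 has no probe set of its own.

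Genes that move phosphatidylserine, the lipid that annexins bind, were lower for 3 of 9 tested members and higher for 0, with a median of -0.30. Plscr3, the phospholipid scramblase of mitochondria, measured 143 and 170 against 548 and 473, 3.15-fold lower in L929 (limma adjusted p = 3.4e-05). Plscr2, of the same family, measured 0.661 and 0.810 in L929, below the level, and 37.7 and 62.2 in NIH3T3. It entered the test, and so the count of 3, only through NIH3T3. Its fitted difference depended on the offset, from -4.83 with an offset of 1 to -1.31 with 32. The geometric mean of the NIH3T3 signals was 2.80-fold the level, so without an offset the lines were at least that far apart. Atp11a, a flippase that returns phosphatidylserine to the inner leaflet, measured 141 and 142 against 287 and 367, 2.22-fold lower (limma adjusted p = 4.3e-04). The scramblases Ano6, at -0.30, and Xkr8, at 0.14, were not called, and neither was Tmem30a, the flippase subunit, at -0.49 (limma adjusted p = 0.00699).

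Among genes of calcium-triggered membrane repair, in which annexins take part, 1 of 14 tested was higher and 3 were lower, with a median of -0.13. Ehd2, an ATPase of caveolar necks, measured 903 and 874 against 292 and 281, 3.05-fold higher in L929 (limma adjusted p = 8.0e-06). Stx4a, a syntaxin of plasma membrane fusion, measured 156 and 247 against 432 and 367, 1.99-fold lower (limma adjusted p = 0.00489). The ferlins Dysf, at 25.6 and 50.2 against 77.4 and 80.5, and Myof, at 728 and 670 against 1275 and 921, were called lower by 1.97-fold and 1.55-fold, but each lost its call in 5 of 15 alternatives. Dysf was not called on leaving out L929 replicate 1 (-0.58) or either NIH3T3 replicate (-1.0 without the first and -0.95 without the other), and Myof not without L929 replicate 2 (-0.57) or NIH3T3 replicate 1 (-0.40). Ahnak, the giant scaffold that binds the Anxa2 complex, measured 4403 and 4440 against 3233 and 2687, a difference of 0.58 under the fold threshold. Its mean scaled signal lay above 2000, the range in which NIH3T3 replicate 2 read low after scaling.

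The genes outside the family with the values nearest to those of Anxa6 1415818_at on the 4 arrays, by Euclidean distance of log2 signals, were Plpp3, C330007P06Rik and Arid5b. Their distances were 0.119, 0.132 and 0.159, and their log2 differences were -0.74, -0.80 and -0.81. They were selected for this likeness, so their differences are a description over 4 arrays.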

How the data were processed

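Total RNA of 2 L929 and 2 NIH3T3 samples was hybridised to 1-colour Affymetrix arrays. The deposited table holds 1 linear intensity per probe set and array, which are MAS5 signals per the submitters' processing notes. Neither the MAS5 version nor its target value nor a genome build is stated there. Groups and replicate numbers came from the sample titles. Platform annotation named 34945 of 45037 non-control probe sets with a unique symbol, 932 with several and 9160 with none. Signals were multiplied per array to equalise trimmed means that leave out 2% at each end (factors 1.07, 1.14, 1.13 and 0.726). An offset of 8.01 was added before log2, so fold changes understate the change of dim genes. Lines were compared in limma 3.58.1 (lmFit, then eBayes with trend; R 4.3.3) over all 4 arrays, and the procedure was tested on simulated data. Replicates correlated at 0.982 in L929 and 0.981 in NIH3T3 across probe sets. The text names every member probe set, called genes of the related lists and the 3 nearest profiles. Members and lists were chosen with earlier results of these data known. Alternatives covered scaling, offset, filter, variance model, adjustment over genes, replicate block and each array left out.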

Additional observations from a re-analysis of the deposited data

How the results depend on the processing

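Over the alternatives, the tested annexin probe sets kept their direction and side of the threshold in 182 of the comparisons, lost a call in 1, gained one in 4 and turned sign in 15, and every sign that turned belonged to a difference that was not called. The annexin count higher in L929 was 1 with median scaling and 0 to 2 with 1 array left out; the count lower was 0 without scaling and 1 to 2 with 1 array left out. Over all probe sets, 1486 were higher without scaling (4091 as reported), and 2187 genes were higher and 2228 lower when 1 probe set per gene was used, where fewer features are tested. Signs turned without scaling for Anxa2 1419091_a_at (-0.060), Anxa2 1437692_x_at (-0.074), Anxa3 (-0.057) and Anxa4 1424176_a_at (-0.26), where the median of all probe sets moved from -0.0091 to -0.28. They also turned for Anxa4 1457658_x_at with median scaling (0.0053) and quantile normalization (0.018), and for Anxa7 1438764_at with quantile normalization (0.0047). With 1 array left out they turned for Anxa2 1419091_a_at (-0.073 to 0.53), Anxa2 1437692_x_at (-0.22 to 0.60), Anxa4 1424176_a_at (-0.013 to 0.052), Anxa4 1457658_x_at (-0.40 to 0.29), Anxa6 1442288_at (-0.19 to 0.88) and Anxa7 1438764_at (-0.32 to 0.14). The cause of these turns was not tested. The partner genes turned sign in 0 comparisons and lost a call in 19. When an array was left out, the lone array of its line was assumed to vary like the other line. After scaling, the deviations of same-numbered replicates were nearly uncorrelated (r = 0.0138 across probe sets). The titles do not say whether the numbers pair the samples. The correlation cannot decide this, because scaling removes a shift shared by whole arrays. With the replicate block 0 annexin probe sets were higher and 1 was lower, and 4153 of all probe sets were higher and 4681 lower.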
